A study of Mus musculus with 4 samples.

Results

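Regulatory T cells (Tregs) of wild-type (WT) mice were compared between the thymus, where they arise, and the spleen, where mature cells reside. The comparison rests on 2 of the 4 arrays of the study, WT thymus and WT spleen, each hybridised with RNA from the pooled cells of 3 mice. All mice were male and of the C57BL/6 strain, and the same 3 animals gave both organs. The other 2 arrays hold thymus and spleen of deltaDC mice, a name used in the field for mice lacking dendritic cells, which the labels do not spell out. In every group the sorted cells were live, CD4-positive and CD25-positive, with no selection on Foxp3, so non-Treg cells that carry CD25 could enter. Splenic CD4 T cells had been enriched by a negative-selection kit and thymic cells by removal of cells bound by anti-CD8, so organ and isolation route cannot be told apart.

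Tregs are CD4 T cells that restrain immune responses under the transcription factor Foxp3. They form in the thymic medulla from CD4 thymocytes that receive a strong T cell receptor signal, then leave through sphingosine-1-phosphate signalling and circulate through lymphoid organs. Thymocytes earlier in this path rearrange their receptor genes with Rag1, Rag2 and Dntt and signal through the pre-T cell receptor.

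A gene was taken as measured when its probe was well above background on both WT arrays, which held for 12478 genes. Signals below are processed fluorescence divided by the 75th percentile of the array and put on a common scale of 388, so the ratio of 2 signals is the fold difference. They are not corrected for probe affinity and are compared only within a gene. With 1 array per group the WT pair has no replicate check and no p-value. The errors given are those between repeated spots of a probe, and they hold no variation between animals or labellings. Between 48.7% and 50.7% of spots were well above background on the 4 arrays, which were on 1 slide, and 0 spots were saturated. In such bulk samples fewer cells of a type and less RNA per cell cannot be told apart.

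The T cell identity of both WT samples was plain in their markers. Of 10 T cell markers 9 were on the array, and all 9 were measured. None of them differed 2-fold, against 6.52% of all genes higher and 3.02% lower on WT thymus, so for so few genes this count says little. Their summed signal was 385829 on WT spleen and 339738 on WT thymus. Cd3e, a receptor chain, had signals of 42579 on WT spleen and 36148 on WT thymus, and Cd4 had 11049 and 11644.

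Of the 12478 genes, 813 were at least 2-fold higher on WT thymus (6.52%) and 377 at least 2-fold lower (3.02%). At 4-fold the counts were 262 and 40. For genes above background on a single WT array the difference is a limit, or a plain ratio where taken against the gene's own dim signal. It reached 2-fold for 389 genes seen on thymus and 144 seen on spleen. The median log2 difference was -0.08 and the central 95% of genes lay between -1.09 and 1.83. The calls depended on brightness. Of 1866 genes with a mean signal under 100, 12.8% were higher and 6% lower, against 0.532% and 2.48% of 1127 genes between 10000 and 100000.

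**Figure D1:**
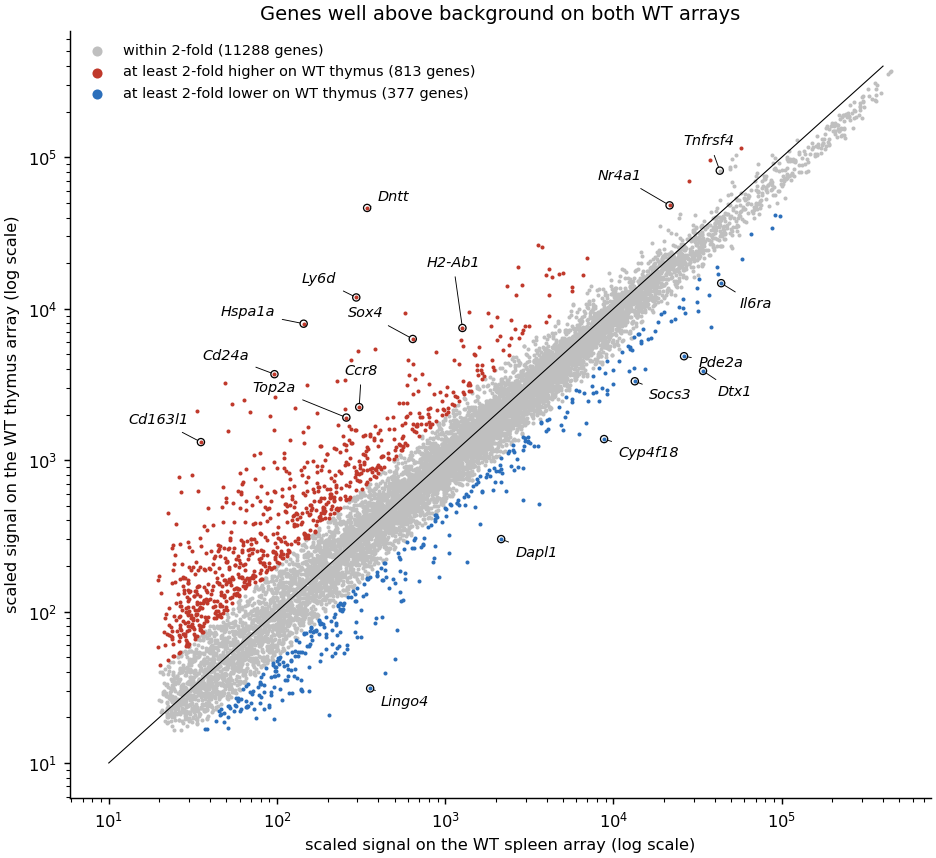
Scaled signal of each of the 12478 measured genes on the WT spleen array (horizontal, log scale) and on the WT thymus array (vertical, log scale), with the line of equality. The 813 genes at least 2-fold higher on thymus are red and the 377 at least 2-fold lower are blue, and the brightest genes, near the upper right corner, lie below the line.

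Genes of receptor rearrangement and early thymocytes were among those with the largest differences. Dntt, the polymerase that adds bases at receptor gene joints (its probe lies at chr19:41133936-41133995 on mm9), had signals of 343 on WT spleen and 46281 on WT thymus, and of 258 and 42148 on the deltaDC pair. Both thymus arrays thus stood far above both spleen arrays, and the WT log2 difference was 7.08 ± 0.09 (spot error). Rag1, a subunit of the recombinase that cuts receptor genes, had a signal of 2532 on WT thymus and was not well above background on WT spleen, a difference of at least 129.7-fold. Ptcra, the pre-T cell receptor alpha chain, was at 3573 on WT thymus and below background on spleen, at least 183.0-fold higher. Rag2 was at least 35.3-fold and Arpp21, a gene of immature thymocytes, at least 29.5-fold higher.

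Surface and regulatory genes of thymocytes followed the same order. Cd24a, a surface glycoprotein whose level falls during thymocyte maturation, had 96.6 on WT spleen and 3694 on WT thymus (log2 difference 5.26 ± 0.14), with 153 and 4410 on the deltaDC pair. Ly6d, a marker of lymphoid precursors, had 296 and 11861 (5.33 ± 0.09). The transcription factor Sox4 had 641 and 6309 (3.30 ± 0.10), and Myb, a factor of lymphoid progenitors, had 1787 and 9397 (2.40 ± 0.08). Cd8a was at 103 on WT thymus and below background on WT spleen, at least 5.3-fold higher, although thymic cells had been depleted with anti-CD8. Ccr9, the receptor that guides thymocytes, had 1215 and 4340 (1.84 ± 0.08).

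Over the 24 genes of the thymocyte development list, 18 were measured, with 6 higher (against 6.52% of all genes), 0 lower and a median of 0.61. The other 6 were Rag1, Rag2, Ptcra, Arpp21 and Cd8a, which had bounds, and 1 gene with neither a measured difference nor a bound. Of the 18 measured, 5 (Dntt, Ly6d, Cd24a, Sox4 and Myb) were at least 2-fold above both spleen arrays on both thymus arrays, a pattern met by 294 of the 12284 genes above background on all 4 arrays (2.39%). The rest of the list stayed nearer to 1. Satb1, a chromatin organiser of thymocytes, had 14068 and 20030 (0.51 ± 0.08), and Tox, a factor of CD4 lineage commitment, had 3821 and 4740 (0.31 ± 0.08).

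The Notch pathway, which drives early T cell commitment, held 1 gene strongly higher and 1 strongly lower. Notch3, a receptor of this pathway, was at 2318 on WT thymus, at 1640 on deltaDC thymus and below background on both spleens, at least 118.8-fold higher in WT. Dtx1, a ubiquitin ligase and Notch target (probe at chr5:121130278-121130337 on mm9), had 34045 on WT spleen, 3881 on WT thymus, 35716 on deltaDC spleen and 7296 on deltaDC thymus. Its level was lower on both thymus arrays, with a WT log2 difference of -3.13 ± 0.09. Of the other 11 measured members none differed 2-fold (against 6.52% of all genes higher and 3.02% lower). Among them were Lfng, a glycosyltransferase that modifies Notch, at -0.80 ± 0.08 and Rbpj, the pathway's DNA-binding factor, at 0.75 ± 0.08.

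Genes induced by T cell receptor signals were in part higher on thymus. Nr4a1, an immediate target of the receptor, had 21542 on WT spleen and 48124 on WT thymus (1.16 ± 0.08), with 16885 and 54484 on the deltaDC pair. Its relatives Nr4a2 (198 and 1101, 2.47 ± 0.14) and Nr4a3 (52.0 and 263, 2.34 ± 0.07) differed more. Dusp4, a phosphatase that dampens MAP kinases, had 596 and 3157 (2.41 ± 0.10), and Rgs16, a brake on G protein signals, had 1121 and 4578 (2.03 ± 0.10). These 5 genes were at least 2-fold higher on both thymus arrays than on both spleens. Xcl1, a chemokine, had 111 on WT spleen and 1026 on WT thymus (3.21 ± 0.14), but 1755 and 1736 on the deltaDC pair, so that only WT spleen was low. Bhlhe40, an activation-linked repressor, had 349 and 1182 in WT (1.76 ± 0.10) and 1431 and 965 in deltaDC.

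The remaining response genes were close to equal. Of 24 measured members 7 were higher (against 6.52% of all genes) and 0 lower (against 3.02%), with a median of 0.29. Egr1 had 2350 and 2985 (0.35 ± 0.08), Egr2 2110 and 1782 (-0.24 ± 0.08) and Cd5, whose level tracks receptor signal strength, 78176 and 71373 (-0.13 ± 0.08). Cd69, an early activation marker that also retains cells in the thymus, had 3238 on WT spleen and 2417 on WT thymus (-0.42 ± 0.08). None of the 22 genes of the receptor complex and its proximal kinases differed 2-fold (against 6.52% of all genes higher and 3.02% lower). Their median was -0.12, and it turned to 0.15 under quantile normalization and 0.18 in the deposited matrix.

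Core Treg genes lay on both sides of equality, 8 above 0 and 10 below. All 18 genes were measured, 0 were 2-fold higher (against 6.52% of all genes) and 2 were 2-fold lower (against 3.02%). The median was -0.14, turning to 0.01 under quantile normalization. Foxp3 had 11661 on WT spleen and 8860 on WT thymus (-0.40 ± 0.09), between 10557 and 10867 on the deltaDC arrays. Il2ra, which encodes the CD25 used in the sort, had 28939 and 28097 (-0.04 ± 0.08), while Il2rb, the beta chain of the same receptor, had 24402 and 15835 (-0.62 ± 0.08). The checkpoint receptor Ctla4 had 2085 and 1770 (-0.24 ± 0.08), and the Ikaros family factors Ikzf2 and Ikzf4 differed by 0.23 ± 0.08 and 0.33 ± 0.07.

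Tnfrsf4 (OX40), a costimulatory TNF receptor, had 42830 on WT spleen, 81579 on WT thymus, 55131 on deltaDC spleen and 93041 on deltaDC thymus, with both thymus arrays above both spleens and a WT difference of 0.93 ± 0.08, under 2-fold here and 1.25 under quantile normalization. Tnfrsf18 (GITR), another such receptor, had 30603 and 41725 (0.45 ± 0.08). In the separate list of TNF receptor and NF-kB genes 0 of 22 measured members differed 2-fold (against 6.52% of all genes higher and 3.02% lower). Of the 22, 9 lay below 0 and the median was 0.07, with a range from -0.67 (Ltb) to 0.95 (Nfkb2). Swap70, a cytoskeletal adaptor, differed by 0.72 ± 0.08. The 2 genes past 2-fold were Izumo1r, the folate receptor FR4, with 12246 on WT spleen and 5630 on WT thymus (-1.12 ± 0.09, and -0.99 under quantile normalization), and Socs2, a cytokine signal inhibitor, with 1084 and 502 (-1.11 ± 0.04). Socs2 was lower on both thymus arrays, at 429 on deltaDC thymus against 1328 on deltaDC spleen.

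Entpd1 (CD39), which degrades extracellular ATP, had 165 and 82.8 (-0.99 ± 0.19), and Nt5e (CD73), the next enzyme of that path, 5647 and 4273 (-0.40 ± 0.08). Lrrc32 (GARP), which docks latent TGF-beta, had 37495 on WT spleen and 22563 on WT thymus (-0.73 ± 0.08), while Itgb8, an integrin chain that activates TGF-beta, had 109 and 138 (0.35 ± 0.19). Gpr83 differed by -0.58 ± 0.11, Nrp1, a semaphorin receptor, by 0.32 ± 0.11 and Capg, an actin-capping protein, by 0.10 ± 0.08.

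**Figure D2:**
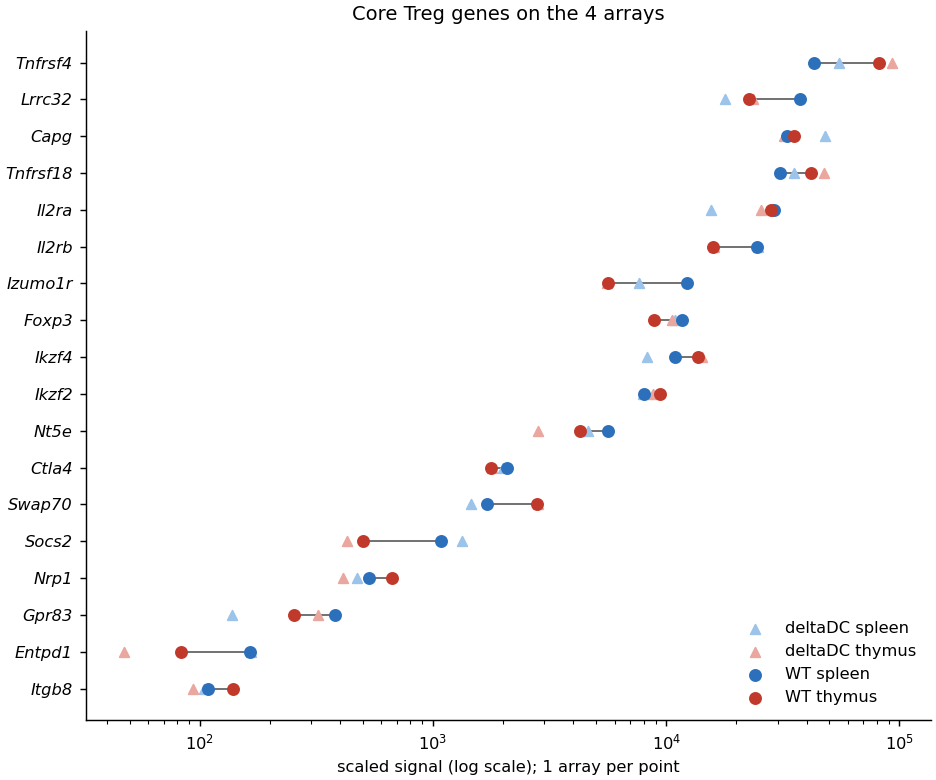
Scaled signal (log scale) of the 18 core Treg genes on each of the 4 arrays, 1 array per point, with a line joining WT spleen (blue circle) and WT thymus (red circle). The lines are short for Il2ra, Ctla4, Ikzf2 and Capg and longest for Izumo1r and Socs2, which are lower on thymus.

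Genes of mitosis were mostly at least 2-fold higher on WT thymus. Of 35 mitosis genes 30 were measured, 29 were higher on WT thymus (against 6.52% of all genes), 0 were lower and the median was 2.09. Another 3 (Cdk1, Ttk and Cdc25c) had bounds on the higher side. Top2a, the topoisomerase that untangles chromosomes, had 258 on WT spleen, 1910 on WT thymus, 1020 on deltaDC spleen and 1524 on deltaDC thymus. WT spleen alone was low, and the WT difference was 2.89 ± 0.10 against 0.58 for deltaDC. Espl1, the protease that parts sister chromatids, had 65.2, 466, 337 and 399 in the same order (2.84 ± 0.15), and Nusap1, a spindle protein, 183, 1236, 899 and 1129 (2.75 ± 0.14). The spindle checkpoint kinase Bub1 had 37.8 and 245 in WT (2.70 ± 0.07), and Mki67, a common proliferation marker, 1859 and 7691 (2.05 ± 0.08), with 7106 and 5542 in deltaDC.

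No mitosis gene met the pattern of both thymus arrays 2-fold above both spleens, and the deltaDC median of the same 30 genes was 0.20. Genes of DNA replication showed a smaller difference, with 17 of 31 measured members higher (against 6.52% of all genes), 0 lower and a median of 1.05 in WT and 0.41 in deltaDC. Uhrf1, which copies methylation to new DNA, was the exception that was 2-fold higher on both thymus arrays, with 1378, 9451, 2762 and 7961 (2.78 ± 0.08). The helicase subunit Mcm5 had 2203 and 5322 (1.27 ± 0.08), and the replication factor E2f1 had 325 and 1093 (1.75 ± 0.10).

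Promoter sequences of some of these genes are shown as a description, and what their letters mean for the differences was not tested. RefSeq windows of the 250 bases before the start site (GRCm38.p6) were searched on both strands for CCAAT and for TTTGAA, the core of the cell cycle homology element; these motifs do not overlap each other in the stretches shown. CCAAT stood in 26 of 31 windows of 29 matched mitosis genes (83.9%), in 17 of 32 of the replication list (53.1%) and in 33.8% of all 32851 windows. It also stood in 14 of 17 windows of the cholesterol synthesis list (82.4%), which lay lower on thymus. Shares were 35.9% for thymocyte development, 33.3% for ribosomal proteins and 44.4% for immediate early and heat shock genes. TTTGAA stood in 14 of the 31 mitosis windows (45.2%), 3 of the 32 replication windows (9.38%) and 16% of all windows. A match is a description of letters and no binding site. The 150 bases before the start follow for 3 of the named mitosis genes, with either motif, or its complement, in capitals. Those of Nusap1 and Nuf2 held neither motif.
Top2a, chr11:99024190-99024339 (- strand): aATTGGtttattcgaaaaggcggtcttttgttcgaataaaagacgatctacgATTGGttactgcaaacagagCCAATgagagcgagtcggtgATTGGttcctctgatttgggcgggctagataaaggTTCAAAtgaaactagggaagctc
Espl1, chr15:102296143-102296292 (+ strand): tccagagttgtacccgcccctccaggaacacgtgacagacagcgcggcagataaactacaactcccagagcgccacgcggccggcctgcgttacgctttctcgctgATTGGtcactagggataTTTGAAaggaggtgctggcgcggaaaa
Bub1, chr2:127831860-127832009 (- strand): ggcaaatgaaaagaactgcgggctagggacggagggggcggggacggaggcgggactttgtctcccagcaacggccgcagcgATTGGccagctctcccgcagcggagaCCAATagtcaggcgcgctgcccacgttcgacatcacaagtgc
The Top2a stretch held 4 CCAAT matches and 1 TTTGAA match, that of Espl1 1 of each, and that of Bub1 2 CCAAT matches and 0 TTTGAA matches.

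MHC class II genes, which present antigen and in mice are mainly expressed by dendritic cells, B cells and thymic epithelium, were in part also lowest on WT spleen. H2-Ab1 had 1265 on WT spleen, 7459 on WT thymus, 6659 on deltaDC spleen and 8399 on deltaDC thymus (2.56 ± 0.08 in WT). H2-Aa had 163, 981, 1309 and 1011 (2.59 ± 0.14), H2-Eb1 1237, 6195, 6957 and 7072 (2.32 ± 0.08) and the invariant chain Cd74 1505, 4948, 6695 and 6004 (1.72 ± 0.08). Of 8 measured genes 5 were 2-fold higher (against 6.52% of all genes) and 0 were 2-fold lower (against 3.02%). A further 1 lay below 0, at -0.35, and the median was 1.91, against 0.28 in deltaDC. H2-Oa, a modulator of peptide loading, had 1982 and 3939 (0.99 ± 0.08), while H2-DMa had 1079 and 1197. Ciita, the master activator of these genes, was below background on all 4 arrays. CCAAT, the letters of the Y box of class II promoters, stood in 7 of 8 windows of this list (87.5%). Stretches of 150 bases before the start are given for 2 of them, with CCAAT or its complement in capitals.
H2-Aa, chr17:34287824-34287973 (- strand): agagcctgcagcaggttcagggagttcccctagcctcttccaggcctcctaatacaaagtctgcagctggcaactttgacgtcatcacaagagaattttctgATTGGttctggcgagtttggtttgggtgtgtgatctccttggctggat
H2-Eb1, chr17:34305717-34305866 (+ strand): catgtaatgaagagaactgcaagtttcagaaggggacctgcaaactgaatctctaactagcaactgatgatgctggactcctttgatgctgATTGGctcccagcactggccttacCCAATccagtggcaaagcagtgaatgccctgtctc

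Markers of other cell types also differed between arrays, in orders that varied by list, and their part in the results was not tested. Of 10 conventional dendritic cell markers, 2 were measured on both WT arrays and 5 (Itgax, Cd209a, Ccl17, Flt3 and Zbtb46) were above background on WT thymus but not on WT spleen. Clec9a, Xcr1 and Ccl22 were below background on both WT arrays. The measured ones, Batf3 and Cd86, lay lower on thymus, at -0.74 and -0.32. The summed signal was 1818 on WT spleen, 2009 on WT thymus, 1343 on deltaDC spleen and 1226 on deltaDC thymus. On deltaDC spleen 6 of these 10 markers were above background, and on deltaDC thymus 6. Of 10 B cell markers 4 were measured on both WT arrays, and 1 of them, Cd79a, was 2-fold higher on thymus (43.8 and 158, against 6.52% of all genes). Another 1 lay below 0, at -0.63, and the median was 0.68. A further 4 had bounds toward thymus, among them Ms4a1 (at least 13.8-fold), and the list sums were 2231, 3620, 2166 and 7333. Jchain, the joining chain of secreted antibody, had 228 on WT spleen and 3332 on WT thymus (3.87 ± 0.10), and the plasma cell marker Mzb1 was at least 27.1-fold higher. The thymic epithelial genes Krt8 and Prss16 were at least 6.1-fold and 16.8-fold higher on WT thymus, with Aire and Psmb11 below background on both WT arrays. The 4 measured members of that list had 2 below 0, a lowest value of -0.80 and a median of -0.13, and the list sums were 327, 743, 365 and 1281.

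The summed signal of early thymocyte markers had the widest range between arrays of these lists. The 6 CD8 and immature thymocyte markers summed to 755 on WT spleen, 53812 on WT thymus, 590 on deltaDC spleen and 49294 on deltaDC thymus, most of it Dntt. Plasmacytoid dendritic cell markers had 3 of 6 measured members higher (against 6.52% of all genes) and sums of 81407, 78152, 59203 and 74612. Of these markers Ly6d and Ccr9 also stand in the thymocyte list. Neutrophil markers summed to 177, 955, 10010 and 2464, with Mpo, a granule enzyme, at least 32.2-fold higher on WT thymus than on WT spleen and Ngp, Ly6g and Retnlg below background on both WT arrays. NK cell markers summed to 4153, 13535, 32473 and 16150. Of their 8 measured members 3 were higher (against 6.52% of all genes) and 1 lower (against 3.02%). The granzyme Gzma had 385 on WT spleen and 5442 on WT thymus. Innate-like T and lymphoid markers summed to 515, 1746, 5799 and 1506. In that list 1 of 6 measured members was higher (against 6.52% of all genes), Cd163l1, and 4 lay below 0. Macrophage sums were 2286, 1901, 3934 and 2371. Of 8 measured macrophage markers 3 lay above 0 and 5 below, with a median of -0.25 and 1 further bound in each direction. Only 1 was 2-fold lower on WT thymus (against 3.02% of all genes), Spic, the factor of red pulp macrophages (116 and 37.3, -1.64 ± 0.27), and 0 were 2-fold higher. Sums of erythroid markers were 2098, 4120, 5802 and 17140, those of stromal and endothelial markers 2185, 2126, 1863 and 2599, and those of platelet markers 152, 105, 226 and 97.2.

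Genes of quiescence and tissue egress were lower on thymus in part. Of 26 measured members 8 were lower (against 3.02% of all genes), 0 were higher and 22 lay below 0, with a median of -0.57 in WT and -0.07 in deltaDC. Klf2, the factor that switches on the egress receptor, had 25973 on WT spleen, 11552 on WT thymus, 23158 on deltaDC spleen and 16429 on deltaDC thymus (-1.17 ± 0.08). Klf3 had 25862 and 10046 (-1.36 ± 0.08), Il6ra, the interleukin-6 receptor, 43651 and 14740 (-1.57 ± 0.08), and S1pr1, the sphingosine-1-phosphate receptor that drives exit, 10737 and 5458 (-0.98 ± 0.08). Cd55, a shield against complement, was lower on both thymus arrays, with 1606 and 379 in WT (-2.08 ± 0.10) and 791 and 338 in deltaDC. It was the list's member with both spleens 2-fold above both thymus arrays, as were 122 of 12284 genes (0.993%).

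Some members of the list were near equal. Ccr7, the homing receptor, had 33588 and 35896 (0.10 ± 0.08), and the quiescence factors Tcf7 and Bach2 differed by -0.13 ± 0.08 and 0.07 ± 0.08. Dapl1, a gene of resting T cells, had 2149 on WT spleen, 301 on WT thymus, 534 on deltaDC spleen and 310 on deltaDC thymus (-2.84 ± 0.10), so that WT spleen alone was high. Igfbp4 had 343, 166, 73.8 and 136 (-1.05 ± 0.15), and the order of the organs was opposite in deltaDC.

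All 8 Gimap genes, a family of GTPases that supports survival of mature lymphocytes, were lower on thymus in both genotypes. Gimap3 had 87982, 34008, 84541 and 44690 on WT spleen, WT thymus, deltaDC spleen and deltaDC thymus (-1.37 ± 0.08), Gimap7 1659, 612, 2454 and 863 (-1.44 ± 0.10) and Gimap8 24612, 10293, 21767 and 12109 (-1.26 ± 0.08). These 3 passed 2-fold in WT (against 3.02% of all genes), and Gimap1, at -0.67 ± 0.08, was the nearest to equal. The median was -0.90 in WT and -0.85 in deltaDC. It was -0.74 in WT under quantile normalization, and 8 of 8 members had both spleen arrays above both thymus arrays. Members of this family are similar in sequence, and cross-hybridisation between them was not tested.

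Bright genes as a class lay lower on the WT thymus array. The median difference was -0.42 over 126 genes with a mean signal above 100000 and 0.02 under quantile normalization. The 39 measured ribosomal protein genes, most of them in that range, were all below 0 with 0 at 2-fold and a median of -0.52, which became -0.07 under quantile normalization and -0.05 in the authors' deposited matrix. MHC class I genes had a median of -0.30, with 0 of 16 at 2-fold, and -0.06 and 0.01 under those settings. Over all genes 6.52% were 2-fold higher and 3.02% lower.

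In the IL-2 and STAT5 list 3 of 20 measured genes were lower (against 3.02% of all genes), 0 were higher and 8 lay above 0, with a median of -0.11. Socs3, an inhibitor of STAT3 signalling, had 13388, 3317, 14121 and 3340 (-2.01 ± 0.09), the kinase Pim1 5273, 2088, 5461 and 2303 (-1.34 ± 0.08) and Il10ra, the interleukin-10 receptor, 5254, 2611, 4669 and 2258 (-1.01 ± 0.08). These were the 3 lower genes, and each was lower on both thymus arrays. Stat5a itself was on the higher side (3332 and 6085, 0.87 ± 0.08).

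Among chemokine receptors and integrins, 3 of 20 measured genes were higher (against 6.52% of all genes) and 5 lower (against 3.02%). Ccr8, a receptor of skin-homing and activated Tregs, had 308, 2239, 922 and 1855 (2.86 ± 0.10) and was higher on both thymus arrays. Ccr6 had 6945, 21621, 16661 and 16013 (1.64 ± 0.07) and Cx3cr1 29.4, 286, 527 and 325 (3.28 ± 0.22), in both cases with WT spleen alone low. Lower on both thymus arrays were the follicle-homing receptor Cxcr5 (4160, 1880, 3067 and 1210, -1.15 ± 0.08) and the receptor Gpr183 (1740, 776, 1965 and 909, -1.17 ± 0.10). The others lower in WT were the integrin chain Itga6 (-1.58 ± 0.08), the tetraspanin Cd9 (-1.55 ± 0.10) and Ccr10 (-1.37 ± 0.31).

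Of 33 measured effector Treg genes 6 were higher on WT thymus (against 6.52% of all genes) and 1 lower (against 3.02%), with a median of 0.31. Penk, an opioid precursor expressed by activated Tregs, had 4318, 16206, 8861 and 16484 (1.91 ± 0.07). Itgae (CD103) had 552, 1715, 2064 and 1873 (1.64 ± 0.10) and Pdcd1 (PD-1) 2751, 6431, 5948 and 5346 (1.23 ± 0.08), with WT spleen alone low. The transcription factor Maf was lower, with 3122, 1422, 6012 and 1036 (-1.13 ± 0.08). Icos, Tigit, Gzmb and Klrg1 differed by 0.42, 0.36, 0.31 and -0.67 in WT. In deltaDC, where the spleen array was high, 24 of 32 members with a level on each array were 2-fold lower on thymus (against 5.83% of 12284 genes), and the median was -2.05 against 0.34 for the same genes in WT.

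Of 37 type I interferon response genes 3 were higher and 1 lower, shares near those of all genes (6.52% and 3.02%), with a median of 0.14. The higher ones, Mx2 (496 and 1380, 1.48 ± 0.10), Oasl2 (877 and 1806, 1.04 ± 0.10) and Ifi44 (44.2 and 168, 1.93 ± 0.24), were higher on both thymus arrays, and Ly6a (Sca-1) was lower on both (7873 and 2834, -1.47 ± 0.08). Of 19 interferon-gamma response genes and GTPases 3 were lower (against 3.02% of all genes), 0 higher and the median was -0.48, led by Gbp2b (543 and 118, -2.20 ± 0.15) and Gbp3 (7537 and 2786, -1.44 ± 0.08). Cholesterol synthesis genes lay lower as a group, with 20 of 21 below 0 and a median of -0.61 in WT and -0.55 in deltaDC. Of the 21, 2 were 2-fold lower (against 3.02% of all genes), among them Insig1, a brake on sterol synthesis (428 and 162, -1.41 ± 0.15). Both spleen arrays were above both thymus arrays for 20 of the 21. Medians over 32 respiratory chain and 23 glycolysis genes were -0.06 and -0.01, with 0 and 1 genes higher (against 6.52% of all genes) and 0 lower in each (against 3.02%).

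Stress genes included 1 large difference. Hspa1a, an inducible heat shock protein, had 144 on WT spleen, 7960 on WT thymus, 51.1 on deltaDC spleen and 1255 on deltaDC thymus (5.79 ± 0.14), and whether the probe separates it from the near-identical Hspa1b was not tested. The immediate early genes Fos (896 and 2157, 1.27 ± 0.03) and Fosb (118 and 250, 1.08 ± 0.15) were higher in WT, Jun differed by 0.71 ± 0.08, and Klf6 was lower (19171 and 9283, -1.05 ± 0.09). Of 22 measured members of the immediate early and heat shock list 4 were higher (against 6.52% of all genes) and 2 lower (against 3.02%), with a median of 0.09. Of 13 measured purinergic genes 2 were higher (against 6.52% of all genes) and 2 lower (against 3.02%). The higher ones were the receptor P2ry14 (76.4 and 252, 1.72 ± 0.15) and the phosphodiesterase Pde3b (379 and 1399, 1.88 ± 0.10). The lower ones were Art2b, an ADP-ribosyltransferase of the T cell surface, at 1341 and 212 (-2.66 ± 0.10), and the ATP channel P2rx7 that it gates at 14619 and 6111 (-1.26 ± 0.09), both lower on both thymus arrays. TGF-beta pathway genes had 4 of 16 higher (against 6.52% of all genes) and 0 lower with a median of 0.41, among them the receptor Tgfbr1 (1128, 2306, 935 and 1985, 1.03 ± 0.10).

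**Figure D3:**
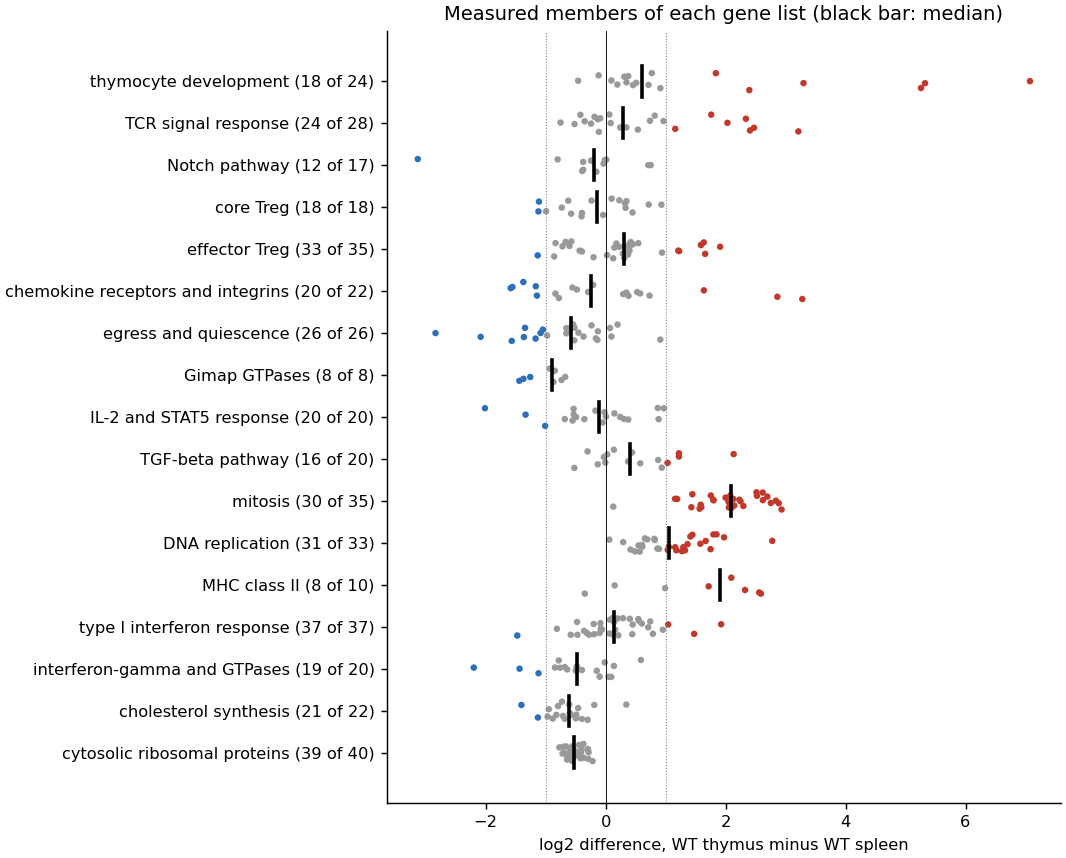
Log2 difference, WT thymus minus WT spleen, of each measured member of 17 gene lists (points; red at least 2-fold higher, blue at least 2-fold lower, dotted lines at 2-fold), with the list median as a black bar and the measured members of all members in brackets. The medians run from -0.90 for the Gimap genes to 2.09 for mitosis.

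Outside the lists, the 12 largest differences toward thymus held Myl10, a myosin light chain of lymphocyte precursors (49.1 and 3215, 6.03 ± 0.21), the desmosome-linked protein Evpl (33.7 and 2096, 5.96 ± 0.21), Wdfy4 (53.7 and 2333, 5.44 ± 0.21), the channel Aqp11 (63.5 and 2476, 5.28 ± 0.14), the glycosyltransferase Pomgnt2 (51.2 and 1550, 4.92 ± 0.21), the adhesion receptor Adgrg1 (68.6 and 2074, 4.92 ± 0.14) and Osbpl1a (26.1 and 776, 4.89 ± 0.22). In deltaDC these 7 genes were also higher on thymus, by 3.82 to 5.53. Cd163l1, a scavenger-type receptor of gamma-delta T cells and a member of the innate-like T and lymphoid list, differed from them. It had 35.3 on WT spleen, 1315 on WT thymus, 1467 on deltaDC spleen and 915 on deltaDC thymus, with WT spleen alone low. The largest bounds beside Ptcra and Rag1 were those of Tff1, a secreted trefoil peptide (at least 209.0-fold), Rab44 (at least 199.3-fold) and Epb41l4b (at least 183.6-fold).

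The 12 largest differences toward spleen included Dtx1, Dapl1 and Art2b, described above. The others were Lingo4 (358 and 31.1, -3.53 ± 0.25), Tmem273 (441 and 39.4, -3.48 ± 0.25), Rflnb (501 and 48.9, -3.35 ± 0.15), Serpina9 (204 and 20.8, -3.30 ± 0.27), Osgin1 (3593 and 515, -2.80 ± 0.10), Sorcs2 (518 and 75.2, -2.78 ± 0.15), Cyp4f18 (8791 and 1377, -2.67 ± 0.08), the cyclic nucleotide phosphodiesterase Pde2a (26261 and 4855, -2.44 ± 0.09) and the heme-degrading enzyme Hmox1 (913 and 170, -2.43 ± 0.15). Of these 9, all but Cyp4f18 were also lower on thymus in deltaDC, by -1.56 to -6.03. Cyp4f18, which inactivates leukotriene B4, had 118 on deltaDC spleen and 207 on deltaDC thymus, both far below the WT levels. Among bounds toward spleen, Cd5l, a macrophage-secreted protein, was at least 15.2-fold lower on thymus, the glutamate receptor Grm6 at least 14.4-fold and Cntn1 at least 11.1-fold. Rhox2h and Cyp26b1 were 16.2-fold and 14.7-fold lower against their own dim signal, which is a plain ratio and no limit.

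The deltaDC pair repeats the contrast on separate arrays. Across the 12284 genes above background on all 4, the correlation of the WT with the deltaDC difference was 0.577 (Pearson's r) and 0.553 (Spearman's rho). Genes are not independent replicates, and all arrays share a slide, so no p is given. Over all 12284 genes, 582 were 2-fold higher on deltaDC thymus and 716 (5.83%) were 2-fold lower. Of 793 genes 2-fold higher on WT thymus, 345 were also 2-fold higher on deltaDC thymus (43.5% of the WT genes and 59.3% of the 582 deltaDC genes). Of 358 lower in WT, 166 were lower in both (46.4%, and 23.2% of 716). For 289 of the 12284 genes, all among the 793, WT spleen was at least 2-fold below each of the other 3 arrays. For 66 of the 12284, all among the 358, it was at least 2-fold above each.

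**Figure D4:**
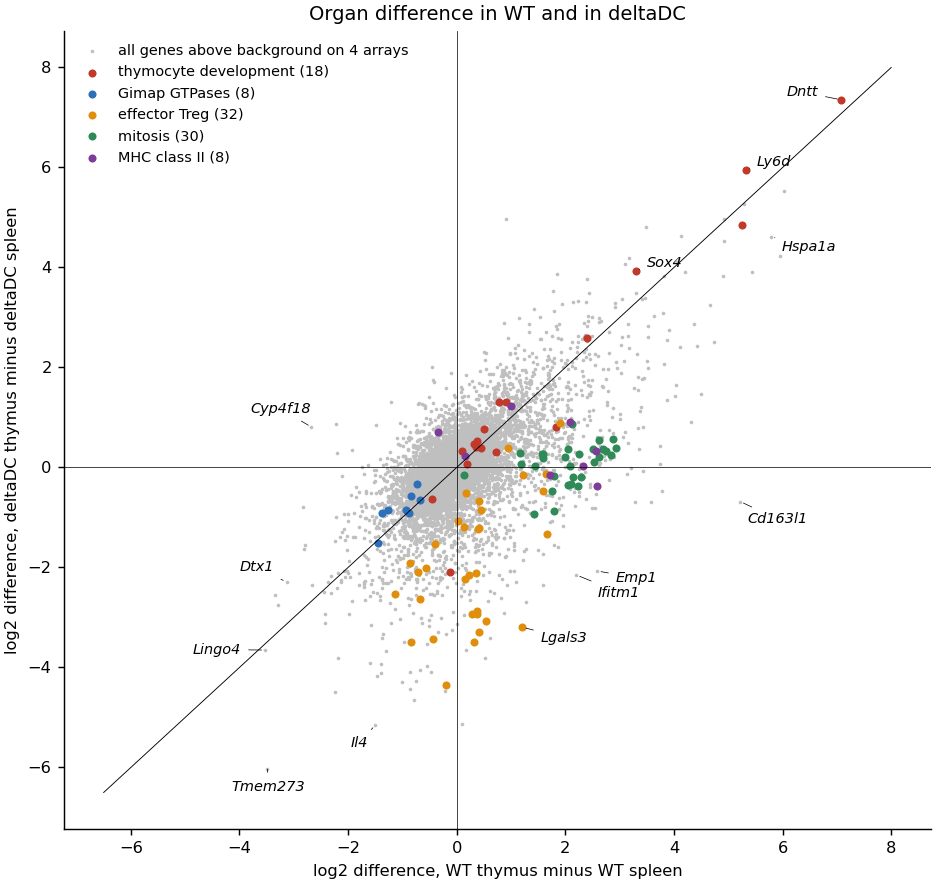
Log2 difference between thymus and spleen in WT (horizontal) and in deltaDC (vertical) for the 12284 genes above background on all 4 arrays, with the line of equality. Most thymocyte and Gimap genes lie near the line, most mitosis and MHC class II genes lie to the right of it near 0 on the deltaDC axis, and most effector Treg genes lie below it.

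**Figure D5:**
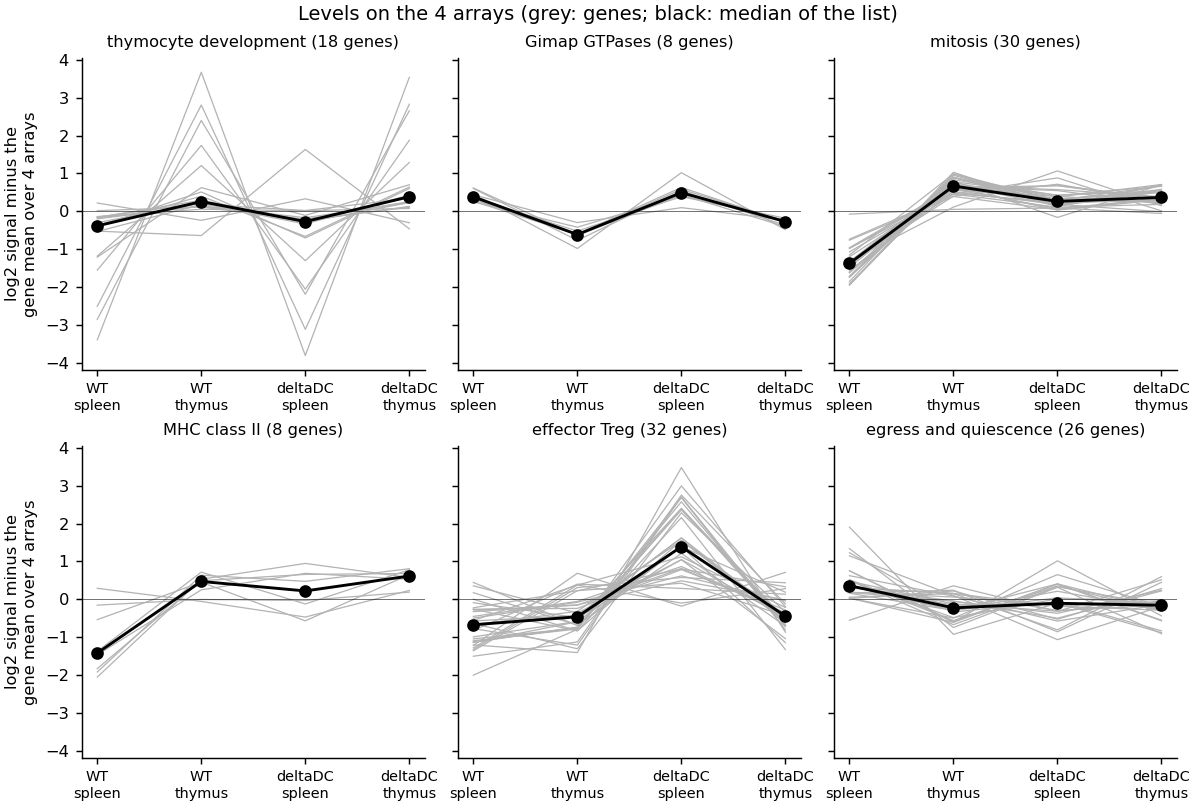
Log2 scaled signal on the 4 arrays minus the mean of the gene over them, for genes of 6 lists above background on all arrays (grey lines, with the list median in black). By their medians, thymocyte and Gimap genes alternate with organ, mitosis and MHC class II genes are low on WT spleen alone, and effector Treg genes are high on deltaDC spleen alone.

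Organ was tested over all 4 arrays, with genotype as a term that also stands for the animals shared by both organs. This test averages over the genotypes and has 1 residual degree of freedom. By limma with Benjamini-Hochberg adjustment, 0 of 13491 genes (0%) passed an adjusted p of 0.05, while 2697 (19.99%) had an unadjusted p under 0.05. The lowest adjusted p, 0.0506, was shared by 45 genes. Among them were Dntt (7.22 ± 0.16 SE), Ptcra (8.58 ± 0.21) and Cd24a (5.05 ± 0.18), each higher on thymus in 2 of 2 genotypes. Ptcra was below background on both spleen arrays, so the size of its value rests on dim signals and is not a measured difference. Socs3 had -2.05 ± 0.14 with an adjusted p of 0.0702, and Gimap3 -1.15 ± 0.19 with 0.163. Top2a, which differed in WT far more than in deltaDC, had 1.73 ± 0.70 with 0.318. The count depended on the settings and reached 359 with organ as the only term.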

How the data were processed

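RNA of sorted cells was labelled with Cy3 and hybridised to one-colour Agilent arrays, 1 per group, per the labels' protocols. Groups were taken from the sample labels. Spot intensity in the deposited scanner output was computed by Agilent Feature Extraction 10.7.3.1, per the file headers, with other columns for flags (0 or 1). A second deposited table, of log2 values by the authors, has a header that states background subtraction and quantile normalization. Its columns hold 59303 rows with medians of 4.10 (WT spleen), 4.15 (WT thymus), 4.11 (deltaDC spleen) and 4.10 (deltaDC thymus). Each column correlated best (r 0.996 to 0.997) with the scanner array of its label, so its direction is settled, its log base rests on the header and it is not centred on 0. Any offset is unknown. It served as an alternative.

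Of 59305 probe spots, flagged outliers (110 to 168 per array) were left out. Log2 processed signals, minus the 75th percentile of each array, were averaged over repeated spots, and the probe with the highest mean stood for a gene. A probe counted as well above background when most of its spots did. Probes were named through RefSeq accessions (27509) or current symbols (3549), giving 22297 symbols, with 24623 probes unnamed. Probe coordinates are on mm9 per the file headers. Where a single WT array measured a gene, the fold was taken against the array's floor, the weakest signal still well above background. This floor was 19.5 on WT spleen and 15.7 on WT thymus, and such a fold is a limit. Where the dim signal was higher, the fold was taken against it and is a plain ratio. Spot errors came from probes spotted 10 times.

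The organ test used limma 3.58.1 (lmFit and eBayes, two-sided) in R 4.3.3 on genes above background on at least 2 arrays. Its estimates were checked on simulated data that had the same organ change in both genotypes, so changes that differ by genotype were not covered. With genotype and organ as terms, the 1 residual degree of freedom is the gap between the WT and the deltaDC organ difference. A difference between genotypes thus counts as error in the p-values. They hold no spread between replicates of a group. Named genes were the 12 largest differences and 5 largest bounds in each direction, all core Treg genes, up to 6 members of each other list or those carrying a count, the 8 widest opposite differences between genotypes, and any genes called by the test; the others were named after their values were seen. The genes and the 44 lists were chosen with earlier results of these data known. Alternatives were the background correction, scaling, filters, thresholds, probe summary and terms of the fit.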

Additional observations from a re-analysis of the deposited data

Results flagged for a closer look

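Among genes at least 2-fold different between organs in both genotypes, 24 differed in opposite directions, 23 of them higher on thymus in WT and lower in deltaDC. With 1 array per group the difference between genotypes was not tested. Among these 24 genes the widest gap between the WT and the deltaDC log2 difference was that of Emp1, a membrane glycoprotein, at 4.66, with signals of 107.3 on WT spleen, 647 on WT thymus, 2160 on deltaDC spleen and 514 on deltaDC thymus. The gap was 4.41 for Lgals3 (galectin-3; 401, 928, 12849 and 1402), 4.35 for Ifitm1 (62.7, 289, 2983 and 672), 3.96 for the chemokine Ccl5 (2380, 5734, 37633 and 5843) and 3.94 for Il18rap, a chain of the interleukin-18 receptor (102, 307, 1260 and 247). It was 3.44 for Qpct, 3.39 for Ggt1 and 3.34 for Frmd5. In these 8 genes the thymus arrays lay closer together than the spleen arrays. The medians of 2 lists also had opposite signs in the genotypes, effector Treg (a gap of 2.38) and helper T cytokines (1.76). The median of the 9 measured cytokines was 0.48 in WT and -1.28 in deltaDC. Of these, 3 (Ccl4, Ccl5 and Il21) were 2-fold higher on WT thymus (against 6.52% of all genes) and 2 lower (against 3.02%). The lower ones were lower on thymus in both genotypes, Il4 with 66.1, 23.4, 1685 and 47.3 in the same order and Ifng with 869, 433, 3162 and 162.

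Probes with no gene name, which the comparisons leave out, leaned the other way from named genes. Of 8037 measured on both WT arrays, 211 were at least 2-fold higher on thymus (2.62%) and 721 at least 2-fold lower (8.97%), with a median difference of -0.27 and a median signal of 142, against 1030 for named genes.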

How the results depend on the processing

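The WT count of 1190 genes at 2-fold (813 higher and 377 lower on thymus) lay between 1151 and 1272 under quantile normalization, median centring, the deposited matrix, the median over probes and the restriction to genes above background on all 4 arrays. It was 702 (496 and 206) with normexp background correction and 3308 (1871 and 1437) with no filter on dim probes. At 4-fold it was 302 (262 and 40) and at 1.5-fold 2883 (1441 and 1442). Reading the background flag as at least 50% of spots, a setting added after the data were seen, gave 1193. Of 129 named genes called at 2-fold, 22 fell under it with normexp and 9 with the median over probes. The number was 7 in the deposited matrix, 5 under quantile normalization and 0 with median centring. The organ test called 0 genes as reported, under quantile normalization, in the deposited matrix, with no filter and over genes above background on all 4 arrays. It called 261 with normexp, 63 with median centring, 59 with the median over probes, 126 with an intensity trend and 359 with organ alone (no replicate block, so the pairing of organs by animals is dropped). The cause was not tested. Nuf2, a kinetochore gene, reversed from 2.93 to -0.085 with the median over its 3 probes. No array could be left out of the organ test, since no residual degrees of freedom remain. The single array per group limits the precision, and dim genes have the largest spot error.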
